A study of Mus musculus with 6 samples.

Results

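The Ikaros family and its chromatin partners were followed in Tfh cells, which give B cells the help that sustains germinal centers. The 10 genes are *Ikzf1*, *Ikzf3* and *Ikzf5* of the Ikaros family and *Chd4*, *Mta2*, *Hdac1*, *Hdac2*, *Rbbp4*, *Gatad2a* and *Gatad2b*, which encode subunits of the nucleosome remodeling and deacetylase (NuRD) complex. They were chosen by gene symbol, leave out other genes of the same family and complex, and are 10 of the 14744 genes in the table of normalized read counts. All 10 passed the filter on low values, which asked for 10 or more in 3 or more libraries, as did 11296 genes in all.

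Ikaros family proteins are zinc finger transcription factors of lymphocytes that bind DNA through their amino-terminal fingers and pair with each other through fingers at the carboxy terminus. In T cells a large share of Ikaros protein is found together with NuRD, a complex that joins an ATP-driven nucleosome remodeler to histone deacetylases and is best known for silencing genes. Ikaros and its close relative Aiolos have been linked to the control of cytokine genes and of helper T cell fate, including that of Tfh cells.

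RNA was sequenced from Tfh cells sorted as CD4+B220-CD44+PD-1+CXCR5+ from the mesenteric lymph nodes (MLNs) of WT mice and of Bach2 fl/fl Cd4-cre mice, with 3 libraries a group and between 10000 and 30000 cells a library. The question was how loss of the transcriptional repressor Bach2 in T cells alters the RNA of Tfh cells. All mice were on a C57BL/6J background, and those used here were 2 to 3 months old. Elsewhere in the study WT denotes littermates that carry Cd4-Cre alone, while the labels of these libraries say WT only. The floxed *Bach2* allele had its neo cassette removed with a FLPe transgene. Cre driven by *Cd4* is active from the double-positive thymocyte stage onward, so *Bach2* is targeted long before a Tfh cell forms, and in CD8 T cells as well. The labels do not say whether the replicates of a group are separate animals, so the p-values below measure the spread between these libraries.

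*Bach2* itself is a check of the labels and is given ahead of the other genes. *Bach2* (GRCm38 chr4:32238804-32586108, plus strand) was at 233, 222 and 105 normalized read counts in the WT libraries and at 399, 763 and 591 in the libraries from Bach2 fl/fl Cd4-cre mice. Each library labelled Bach2-deficient was thus above each WT library, against the label, and the log2 fold change was 1.68 (standard error, SE, 0.37, adjusted p = 0.141 in limma). The values are sums over a whole gene, so reads on exons that the allele keeps are part of them. DESeq2 on 5 libraries gave 1.81 for *Bach2* with an adjusted p of 0.00123, in the same direction. On the same 5 libraries edgeR gave 1.83 with an adjusted p of 0.148. With the trends in transcript length and GC content removed, limma gave 1.10. For this reason the name used throughout is the libraries labelled Bach2-deficient.

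The sorted cells carried T cell and Tfh transcripts in every library. The 7 T cell markers, led by *Cd3d*, summed to 73415, 72798 and 94432 normalized read counts in WT and to 57792, 58396 and 70025 in the libraries labelled Bach2-deficient. The 7 Tfh markers, led by *Sh2d1a*, summed to 18280, 20821 and 29360 in WT and to 17361, 12953 and 19983 in the other group. Markers of other cells had lower sums in each library, over lists of unlike size and transcript length. The 8 B cell markers, led by *Cd79b*, summed to between 242 and 801 over the 6 libraries. The 2 CD8 T cell markers, led by *Cd8b1*, summed to between 176 and 786, and the 7 myeloid markers, led by *Lyz2*, to between 1708 and 7833. *Lyz2* alone was at 1848, 7211 and 3444 in WT and at 1445, 4395 and 1407 in the other group. Per kb of longest transcript its means were 3167 in WT and 1836 in the other group. Those of *Sh2d1a* were 3713 and 2716. The part of such cells in the results below was not tested.

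Recovered reads ranged from 5045131 to 10987752 in the 5 libraries used in the count tests. WT replicate 1, left out of those tests, had 7737531. It also had the fewest genes above 0, at 11648 against 13111 to 13567 in the other libraries. The libraries differed in how their values ran with transcript length, and this bears on the genes here because they span from 2.04 kb (*Hdac1*) to 7.44 kb (*Gatad2b*) of longest annotated transcript. Spearman's rho, over 11264 genes, between transcript length and a gene's deviation from its mean was -0.23, -0.05 and -0.26 in WT replicates 1, 2 and 3. Among the libraries labelled Bach2-deficient rho was 0.33, 0.24 and -0.01. Genes are not independent replicates, so these values describe the libraries and carry no p. Replicate 3 labelled Bach2-deficient stood nearest to WT in this respect.

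No gene of the 11296 passed the thresholds of the study, an adjusted p under 0.01 and more than 2-fold, in the limma fit of log2(normalized read count + 1), which is 0% in either direction. None of the 10 genes did either. At an unadjusted p under 0.05 the fit held 2301 genes, and DESeq2 on 5 libraries called 90 genes (0.797%) at the thresholds while edgeR on the same 5 called 0. At an adjusted p under 0.05, DESeq2 on 5 libraries held 2 of the 10 genes, *Chd4* and *Rbbp4*, against 3.26% of all genes. With libraries weighted by their spread, limma put *Ikzf5* and *Rbbp4* past the thresholds, against 9.99% of all genes. The description below therefore rests on values, their spread and their overlap. In 6 of the 10 genes the 3 values of a group all lay on the same side of the 3 values of the other group. *Ikzf1*, *Chd4* and *Gatad2b* were higher in every library labelled Bach2-deficient than in every WT library, where 14.6% of all genes tested were. *Ikzf3*, *Hdac2* and *Rbbp4* were lower in every such library, where 12.2% of all genes tested were. The groups overlapped for *Ikzf5*, *Mta2*, *Hdac1* and *Gatad2a*. In sorted bulk samples fewer cells of a type and less RNA per cell cannot be told apart.

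**Figure D1:**
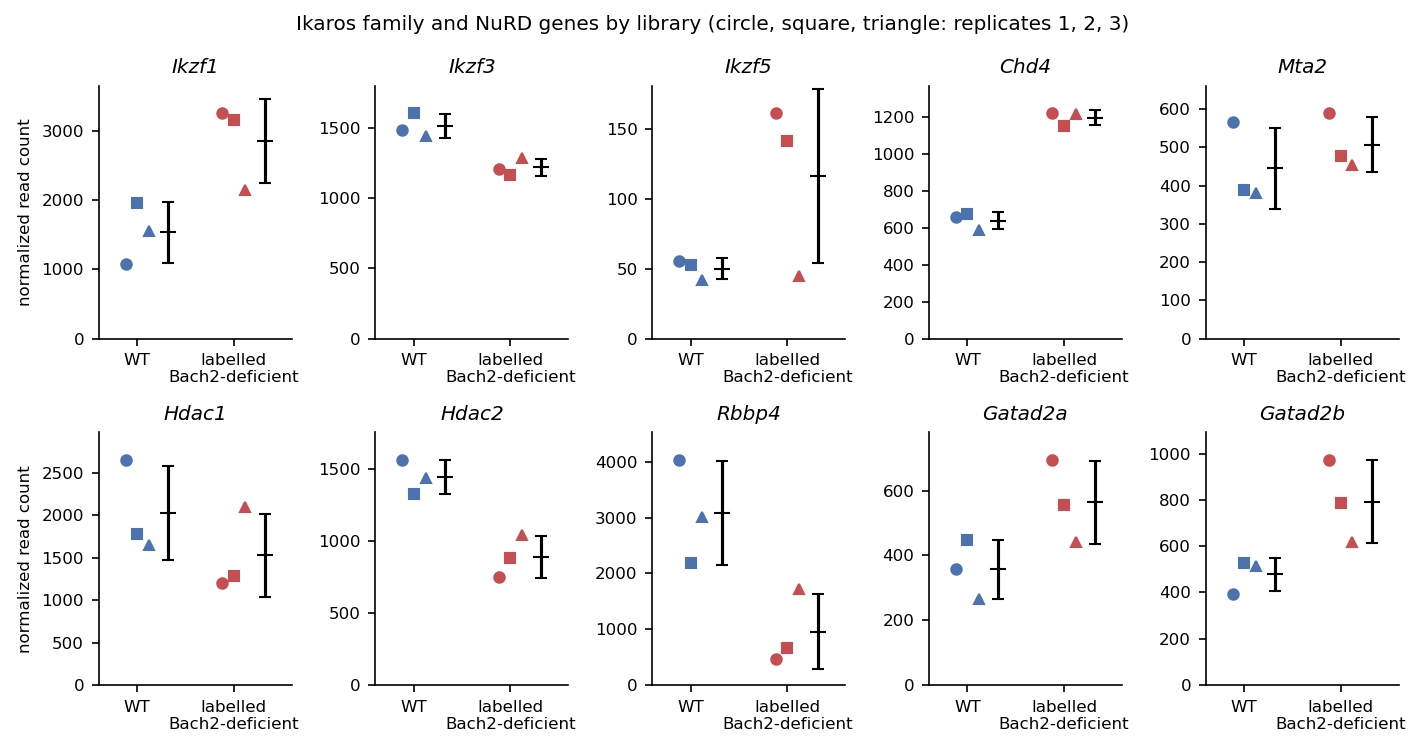
Normalized read counts (vertical axes, from 0) of each of the 10 genes in each library, with WT in blue and the libraries labelled Bach2-deficient in red, replicates 1, 2 and 3 as circle, square and triangle, and the mean with its SD (n = 3) in black beside each group. *Chd4* shows 2 tight groups near 639 and 1198, whereas *Ikzf5* is high in replicates 1 and 2 labelled Bach2-deficient (161 and 141) and at 45.0 in replicate 3.

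Of the Ikaros family, *Ikzf1* was the gene of the 3 with higher values in every library labelled Bach2-deficient. *Ikzf1* encodes Ikaros, the founding member, which T cell development requires. It lies at GRCm38 chr11:11685003-11772926 on the plus strand, and its level was 1076, 1965 and 1560 normalized read counts in WT against 3259, 3154 and 2150 in the libraries labelled Bach2-deficient. The groups did not overlap, but WT replicate 2 and replicate 3 labelled Bach2-deficient were close to each other. Its mean was 1534 ± 445 in WT and 2854 ± 612 in the other group (SD, n = 3 each), a log2 fold change of 0.91 (SE 0.26, adjusted p = 0.146 in limma). With the trends in length and in GC content of transcripts removed from each library, the *Ikzf1* groups still did not overlap and the log2 fold change was 0.59 (adjusted p = 0.268 in limma).

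*Ikzf3* encodes Aiolos, which pairs with Ikaros and appears at later stages of lymphocyte maturation. Its level was 1485, 1605 and 1440 normalized read counts in WT and 1210, 1165 and 1283 in the libraries labelled Bach2-deficient. *Ikzf3* was thus lower in each of the latter, and each group kept within a narrow band. The means were 1510 ± 85.4 and 1219 ± 59.2 (SD, n = 3 each), with a log2 fold change of -0.31 (SE 0.18, adjusted p = 0.345 in limma). Removing the trends in length and GC content moved the log2 fold change of *Ikzf3* to -0.57 (adjusted p = 0.272 in limma), and genes as long as its 4.61 kb transcript tended to be higher in the labelled group.

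*Ikzf5* encodes Pegasus, a distant family member that recognises a different DNA sequence from Ikaros. It was the least abundant of the 10 genes, at 55.5, 52.7 and 41.6 normalized read counts in WT and at 161, 141 and 45.0 in the libraries labelled Bach2-deficient. Replicates 1 and 2 labelled Bach2-deficient were well above WT, while replicate 3 lay among the WT values. The log2 fold change was 1.01 with a wide 95% confidence interval of -0.21 to 2.24 (adjusted p = 0.314 in limma). Without replicate 3 labelled Bach2-deficient it was 1.59 (adjusted p = 0.073 in limma). Without replicate 1 of that group it was 0.68, and without replicate 2 it was 0.77 (adjusted p = 0.694 and 0.645 in limma). The *Ikzf5* values rest on few reads, 47 and 40 in WT replicates 2 and 3 and 109, 211 and 44 in the other group. *Pstk*, which overlaps *Ikzf5* on the opposite strand, was at 294 to 424 normalized read counts, and the strand setting of the counting is not given in the sources used here.

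The ratio of *Ikzf3* to *Ikzf1* within a library is free of that library's size factor. Its log2 value was 0.46, -0.29 and -0.12 in WT and -1.43, -1.44 and -0.74 in the libraries labelled Bach2-deficient. WT libraries thus lay on either side of 0, whereas each library labelled Bach2-deficient had more *Ikzf1* than *Ikzf3* reads. The group means of the log2 ratio differed by -1.22 (2-sided exact permutation p = 0.1, the smallest that 3 against 3 can give, and 0.3 adjusted over the 3 paralogue ratios compared). Removing the trends in length and GC content left the difference at -1.16.

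**Figure D2:**
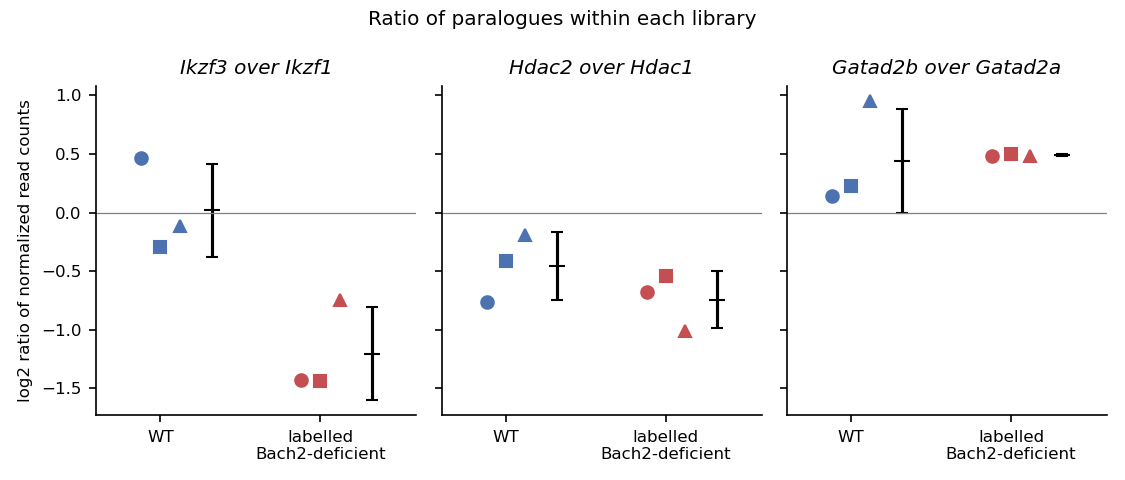
Log2 ratio of normalized read counts of 3 pairs of paralogues within each library (vertical axis, shared by the panels), with WT in blue, the libraries labelled Bach2-deficient in red, replicates 1, 2 and 3 as circle, square and triangle, and the mean with its SD (n = 3) in black. The groups are apart for *Ikzf3* over *Ikzf1* (mean 0.02 in WT and -1.20 in the labelled group) and overlap for *Hdac2* over *Hdac1* and *Gatad2b* over *Gatad2a*.

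The other Ikaros family genes were *Ikzf2*, which encodes Helios, a factor of regulatory T cells that activated T cells also make, and *Ikzf4*, which encodes Eos. *Ikzf2* was at 3394, 4160 and 5358 normalized read counts in WT and at 5448, 3538 and 3080 in the libraries labelled Bach2-deficient, with a log2 fold change of -0.12 (adjusted p = 0.816 in limma). *Ikzf4* was at 11.1, 95.3 and 108 in WT and at 41.4, 114 and 75.7 in the other group. The groups overlapped for both genes, and 0 of the 2 had an unadjusted p under 0.05 in limma, against 10.1% of all genes tested higher and 10.2% lower. The log2 fold change of *Ikzf2* was -0.49 with the trend in length and GC taken out. *Foxp3*, which defines regulatory T cells, was at 222, 315 and 344 in WT and at 47.3, 140 and 91.0 in the libraries labelled Bach2-deficient, without overlap. Its log2 fold change was -1.76 (adjusted p = 0.14 in limma), with adjusted p of 0.00425 in DESeq2 and 0.150 in edgeR on 5 libraries. The 4 regulatory T cell markers summed to 5030, 5799 and 7052 in WT and to 6308, 5043 and 4267 in the other group. *Ikzf2* made up most of each sum. All 4 had a log2 fold change below 0, and *Foxp3* and *Ctla4* were lower without overlap, against 12.2% of all genes tested. The part of regulatory T cells in the *Ikzf1* and *Ikzf3* values was not tested.

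*Chd4* had the largest difference of the 10 genes relative to its standard error in the limma fit of all 6 libraries. It encodes Mi-2beta, the ATPase that moves nucleosomes within NuRD and that T cell development requires. *Chd4* (GRCm38 chr6:125095981-125130591, plus strand) was at 658, 673 and 587 normalized read counts in WT and at 1222, 1151 and 1219 in the libraries labelled Bach2-deficient. All 3 of the latter were well above all 3 WT values, and replicates within a group were close. The means were 639 ± 45.7 and 1198 ± 40.2 (SD, n = 3 each), with a log2 fold change of 0.91 (SE 0.19, adjusted p = 0.141 in limma). DESeq2 on 5 libraries gave an adjusted p of 0.0179 for a log2 fold change of 0.90, and limma without replicate 3 labelled Bach2-deficient an adjusted p of 0.0471. In that limma fit 507 of the 11296 genes had an adjusted p under 0.05, against 0 with all libraries. For *Chd4* edgeR on the same 5 libraries gave 0.151, and limma without each of the other libraries in turn 0.136 to 0.507. The count tests and the fits without a library were not run with the trends in length and GC content removed. In limma on all 6 libraries with these trends removed, the log2 fold change of *Chd4* was 0.22, with a 95% confidence interval of -0.33 to 0.77 (adjusted p = 0.684 in limma), and the groups overlapped.

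*Gatad2a* and *Gatad2b* encode the p66 proteins, which hold the remodeler and the deacetylase core of NuRD together. *Gatad2a* was at 358, 448 and 265 normalized read counts in WT and at 696, 556 and 441 in the libraries labelled Bach2-deficient. WT replicate 2 lay just above replicate 3 of the other group, so the groups overlapped by a narrow margin, and the log2 fold change was 0.67 (adjusted p = 0.225 in limma). *Gatad2b*, the longest of the 10 by transcript, was at 395, 525 and 514 in WT and at 974, 786 and 616 in the libraries labelled Bach2-deficient. Here the groups did not overlap, and the log2 fold change was 0.71 (SE 0.25, adjusted p = 0.172 in limma). Removing the trends in length and GC content brought the log2 fold changes to 0.07 for *Gatad2a* and 0.26 for *Gatad2b*, and the groups then overlapped for both. The log2 ratio of *Gatad2b* to *Gatad2a* differed by 0.05 between the group means (2-sided exact permutation p = 1), and was 0.14, 0.23 and 0.95 in WT and 0.48, 0.50 and 0.48 in the other group.

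*Mta2* encodes the scaffold that dimerises and activates the deacetylases. It was at 567, 389 and 379 normalized read counts in WT and at 590, 478 and 453 in the libraries labelled Bach2-deficient. WT replicate 1 was near the top of the other group, so the groups overlapped. The log2 fold change was 0.20 (95% confidence interval -0.36 to 0.76, adjusted p = 0.657 in limma), and with the trends in length and GC content removed it was -0.03. Leaving out each library in turn gave 0.09 to 0.39 for *Mta2*, the lowest without replicate 1 labelled Bach2-deficient and the highest without WT replicate 1.

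Of the deacetylases and the histone-binding subunit, *Hdac2* and *Rbbp4* were lower in every library labelled Bach2-deficient, while the groups overlapped for *Hdac1*. *Hdac1* and *Hdac2* encode the paired class I deacetylases that remove acetyl groups from histone tails in NuRD and in other corepressor complexes. *Hdac1* was at 2654, 1772 and 1645 normalized read counts in WT and at 1203, 1279 and 2093 in the libraries labelled Bach2-deficient. Replicate 3 of the latter lay within the WT range, so the groups overlapped, and the log2 fold change was -0.42 (95% confidence interval -1.02 to 0.18, adjusted p = 0.378 in limma). *Hdac2* (GRCm38 chr10:36974544-37001889, plus strand) was at 1565, 1329 and 1439 in WT and at 749, 880 and 1039 in the libraries labelled Bach2-deficient. Each of the latter was below each WT library. The means of *Hdac2* were 1445 ± 118 and 889 ± 145 (SD, n = 3 each), and the log2 fold change was -0.71 (SE 0.20, adjusted p = 0.147 in limma). Its groups also stayed apart with the trends in length and GC content removed, at a log2 fold change of -0.60 (adjusted p = 0.281 in limma). The log2 ratio of *Hdac2* to *Hdac1* overlapped between groups, with means that differed by -0.29 (2-sided exact permutation p = 0.3). That difference was -0.15 without replicate 3 labelled Bach2-deficient, -0.16 without WT replicate 3 and -0.44 without WT replicate 1.

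*Rbbp4* had the largest log2 fold change of the 10 genes. It encodes a WD-repeat protein that holds histones in NuRD and also serves in the chromatin assembly factor that loads histones behind the replication fork. *Rbbp4* (GRCm38 chr4:129307100-129335370, minus strand) was at 4038, 2191 and 3009 normalized read counts in WT and at 467, 671 and 1727 in the libraries labelled Bach2-deficient. The groups did not overlap, with WT replicate 1 the highest and replicate 3 labelled Bach2-deficient far above the other 2 of its group. The means were 3079 ± 926 and 955 ± 677 (SD, n = 3 each), a log2 fold change of -1.87 (SE 0.42, adjusted p = 0.141 in limma, 95% confidence interval -2.81 to -0.93). DESeq2 on 5 libraries gave a log2 fold change of -1.47 with an adjusted p of 0.0289, and edgeR on the same libraries an adjusted p of 0.170. Removing the trends in length and GC content left *Rbbp4* at -2.09 (adjusted p = 0.239 in limma), again without overlap between the groups. *Rbbp4* and *Hdac1* lie on the same strand of chromosome 4, 181 kb apart with 4 other genes of the table between them.

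The highest values of *Rbbp4*, *Hdac1* and *Hdac2* were all in WT replicate 1. That library also had the highest sum of the 12 proliferation markers, led by *Pcna*, at 23221 normalized read counts against 11632 and 16041 in the other WT libraries and 13748, 11081 and 14879 in those labelled Bach2-deficient. The part of proliferation in these values was not tested. Without WT replicate 1 the log2 fold change was -1.65 for *Rbbp4*, -0.65 for *Hdac2* and -0.21 for *Hdac1*.

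**Figure D3:**
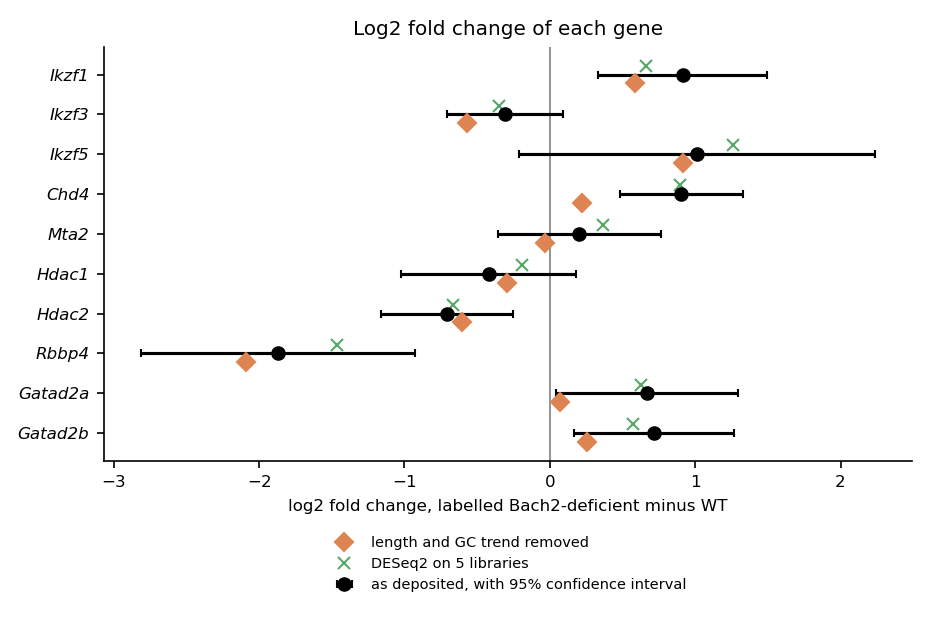
Log2 fold change (horizontal axis, libraries labelled Bach2-deficient minus WT) of each of the 10 genes, from limma with its 95% confidence interval (black), with the trends in length and GC content removed (orange), and from DESeq2 on 5 libraries (green). *Rbbp4* stays below 0 in each (-1.87, -2.09 and -1.47), and *Chd4* goes from 0.91 to 0.22 once both trends are removed.

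The direction of the 10 genes ran in part with their transcript length. All genes were put in 4 classes of like size by length. The median log2 fold change was -0.23 in the class of shortest transcripts, -0.08 and 0.21 in the classes between and 0.44 in the class of longest. In the class of longest transcripts, which holds *Ikzf1*, *Chd4*, *Gatad2a* and *Gatad2b*, 25.3% of genes were higher in every library labelled Bach2-deficient and 4.69% lower. In the class of shortest, which holds *Hdac1*, these shares were 4.65% and 18.7%. *Rbbp4* and *Ikzf3*, with transcripts of 4.66 and 4.61 kb, had log2 fold changes below 0 in a class whose median was 0.21 and where 18.8% of genes were higher without overlap and 10.2% lower. Removing the trends in length and GC content left 4 of the 10 genes without overlap, *Ikzf1* higher and *Ikzf3*, *Hdac2* and *Rbbp4* lower, against 8.86% of all genes higher and 12.4% lower. The same 4 had an unadjusted p under 0.05 in that fit, against 5.1% of all genes higher and 9.85% lower. The median over the 10 genes moved from 0.43 to 0.02 on the log2 scale, and that over all genes from 0.08 to -0.04. With the trend in length alone removed, the genes of the longest class were at 0.52 (*Ikzf1*), 0.41 (*Chd4*), 0.29 (*Gatad2a*) and 0.20 (*Gatad2b*). With both trends removed they were at 0.59, 0.22, 0.07 and 0.26. What made the values run with length, and the part of GC content, was not tested.

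**Figure D4:**
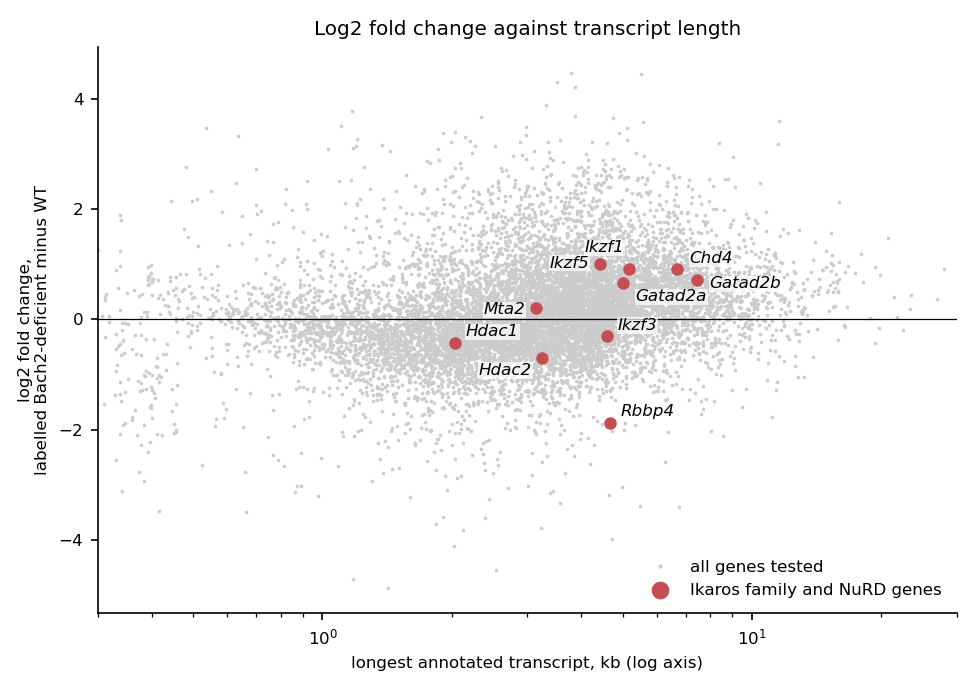
Log2 fold change (vertical axis, libraries labelled Bach2-deficient minus WT) against the length of the longest annotated transcript (horizontal log axis, kb) for all genes tested that have a length (grey) and the 10 genes (red), with 63 of 11264 genes outside the plotted range of 0.3 to 30 kb. The cloud of grey points climbs with length, *Chd4* and *Gatad2b* lie at its long end above 0, and *Rbbp4* lies at -1.87, well below most genes of its length.

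Of the 4 genes whose groups overlapped, *Ikzf5*, *Hdac1* and *Gatad2a* had groups apart once replicate 3 labelled Bach2-deficient was left out, and *Mta2* did not. For 9 of the 10 genes, all but *Chd4*, that replicate was the library of its group closest to the WT mean on the log2 scale, as it was for 56.3% of all genes tested. Without it, 9 of the 10 genes had groups that did not overlap, 5 higher and 4 lower, against 27.2% and 23% of all genes tested. *Hdac1* then had a log2 fold change of -0.67 and *Rbbp4* of -2.41 (adjusted p = 0.0308 in limma). In that fit 507 of the 11296 genes had an adjusted p under 0.05, against 0 with all libraries. Without each of the other libraries in turn, the adjusted p of *Rbbp4* was 0.143 to 0.507. At an unadjusted p under 0.05 in the fit of all 6 libraries were 4 genes with higher values, *Ikzf1*, *Chd4*, *Gatad2a* and *Gatad2b*, against 10.1% of all genes tested, and 2 with lower values, *Hdac2* and *Rbbp4*, against 10.2%.

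Levels can be compared between genes only per length. Per kb of longest transcript, the WT means ran from *Hdac1* (993 ± 270 normalized read counts per kb, SD, n = 3) through *Rbbp4* (660 ± 199), *Hdac2* (445 ± 36.4), *Ikzf3* (328 ± 18.5), *Ikzf1* (297 ± 86.2), *Mta2* (142 ± 33.7), *Chd4* (95.5 ± 6.82), *Gatad2a* (71.3 ± 18.2) and *Gatad2b* (64.2 ± 9.71) to *Ikzf5* (11.3 ± 1.66). Among the 7 NuRD genes of the 10, the deacetylases and *Rbbp4* thus had the highest WT means per kb, and the remodeler and p66 genes the lowest. Neighbours whose means did not differ beyond their spread between libraries were *Hdac1* with *Rbbp4*, *Rbbp4* with *Hdac2*, *Ikzf3* with *Ikzf1*, *Chd4* with *Gatad2a*, and *Gatad2a* with *Gatad2b*. Within each WT library the order was still *Hdac1*, *Rbbp4*, *Hdac2*, and *Chd4* was above *Gatad2a*. *Ikzf1* was in place 5, 4 and 5 among the 10 genes in the WT libraries and in place 1, 2 and 2 in the libraries labelled Bach2-deficient. *Rbbp4* was in place 2 in each WT library and in place 9, 7 and 3 in the others. *Ikzf5* held place 10 in all 6 libraries.

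**Figure D5:**
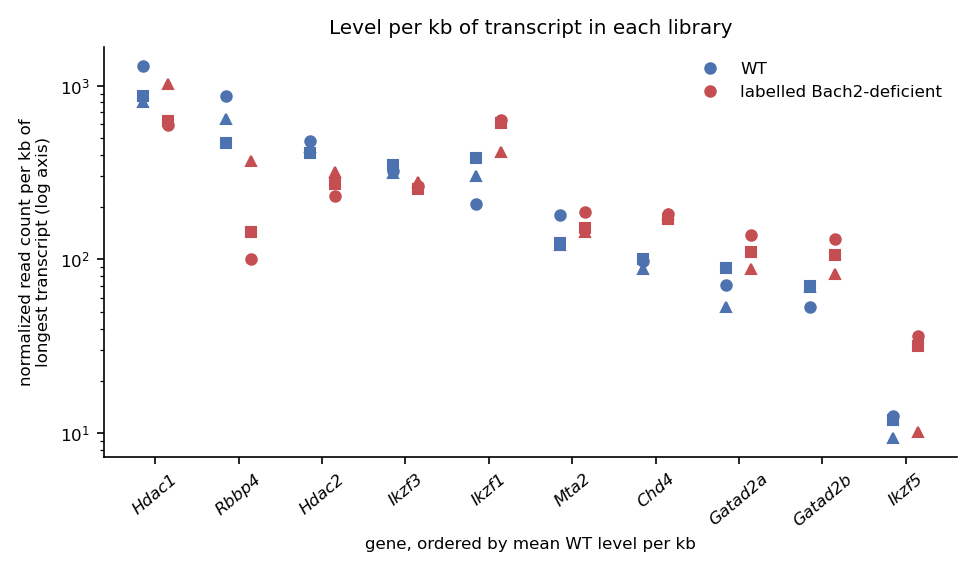
Normalized read counts per kb of longest annotated transcript (vertical log axis) of the 10 genes, ordered by their WT mean, with WT in blue, the libraries labelled Bach2-deficient in red, and replicates 1, 2 and 3 as circle, square and triangle. *Hdac1* is at the left at 993 on average in WT and *Ikzf5* at the right at 11.3, and in the labelled group *Ikzf1* is near *Hdac1* in replicates 1 and 2 and well below it in replicate 3.

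Start sites of the genes were examined for the letters that Bach2 and Ikaros are known to recognise, because Bach2 is the factor targeted here. RefSeq promoters of GRCm38.p6, 300 bases from 250 before to 50 after a start, matched 8 of the 10 genes with 12 start sites. *Ikzf3* and *Hdac1* have no entry. On both strands, the core shared by Bach and AP-1 factors, with the letters TGAGTCA or their reverse complement, was in 5.2% of 32817 promoters. The Ikaros core, with the letters TGGGAA or their reverse complement, was in 25.6%. Of the 12 start sites, 1 held the Bach core and the same 1 held the Ikaros core, a start of *Gatad2a* inside the gene. A match is a description of the letters and no evidence of binding, and no match says only that the letters are not in this window. Of the 12 windows, 11 had more CpG dinucleotides than the median of 7 over all promoters.

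The *Gatad2a* window is shown with both motifs in capitals, beside the windows of *Ikzf1*, *Chd4*, *Hdac2* and *Rbbp4*, 4 of the genes whose groups were apart. The *Ikzf1* starts differ in kind, with 52 CpG at the upstream start and 2 at the downstream start. The sequences are given 5′ to 3′ on the strand of the gene.
Gatad2a inner start, chr8:69974334-69974633, minus strand: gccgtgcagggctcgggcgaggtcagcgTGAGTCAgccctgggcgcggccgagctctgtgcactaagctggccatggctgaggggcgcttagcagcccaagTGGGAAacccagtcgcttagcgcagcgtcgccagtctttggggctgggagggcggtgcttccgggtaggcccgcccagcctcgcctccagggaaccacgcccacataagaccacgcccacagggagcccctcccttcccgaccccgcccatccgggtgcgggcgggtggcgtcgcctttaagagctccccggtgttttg
Ikzf1 upstream start, chr11:11685675-11685974, plus strand: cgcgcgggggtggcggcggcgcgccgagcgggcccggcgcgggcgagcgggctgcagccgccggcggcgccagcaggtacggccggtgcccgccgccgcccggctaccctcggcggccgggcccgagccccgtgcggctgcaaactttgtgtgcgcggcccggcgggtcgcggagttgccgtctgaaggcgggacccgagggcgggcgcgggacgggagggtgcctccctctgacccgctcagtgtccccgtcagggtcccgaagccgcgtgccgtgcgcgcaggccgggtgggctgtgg
Ikzf1 downstream start, chr11:11689927-11690226, plus strand: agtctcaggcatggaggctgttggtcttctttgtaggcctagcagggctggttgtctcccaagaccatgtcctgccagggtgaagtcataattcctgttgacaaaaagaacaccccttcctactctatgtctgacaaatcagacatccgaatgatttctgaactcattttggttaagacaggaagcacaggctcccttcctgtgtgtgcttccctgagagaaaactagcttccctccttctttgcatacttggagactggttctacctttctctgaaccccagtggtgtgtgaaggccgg
Chd4 annotated start, chr6:125095731-125096030, plus strand: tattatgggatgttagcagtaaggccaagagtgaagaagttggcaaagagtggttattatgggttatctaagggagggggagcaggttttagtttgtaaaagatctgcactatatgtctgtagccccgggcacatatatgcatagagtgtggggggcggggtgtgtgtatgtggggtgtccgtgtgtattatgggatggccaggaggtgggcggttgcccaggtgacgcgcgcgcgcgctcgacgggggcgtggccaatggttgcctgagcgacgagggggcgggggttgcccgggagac
Hdac2, chr10:36974294-36974593, plus strand: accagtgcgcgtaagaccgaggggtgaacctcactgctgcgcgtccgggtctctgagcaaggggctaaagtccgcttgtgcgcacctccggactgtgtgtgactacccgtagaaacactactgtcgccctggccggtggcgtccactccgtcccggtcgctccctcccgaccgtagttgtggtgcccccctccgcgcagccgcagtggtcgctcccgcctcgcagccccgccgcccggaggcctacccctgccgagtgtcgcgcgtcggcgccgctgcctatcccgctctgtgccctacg
Rbbp4, chr4:129335321-129335620, minus strand: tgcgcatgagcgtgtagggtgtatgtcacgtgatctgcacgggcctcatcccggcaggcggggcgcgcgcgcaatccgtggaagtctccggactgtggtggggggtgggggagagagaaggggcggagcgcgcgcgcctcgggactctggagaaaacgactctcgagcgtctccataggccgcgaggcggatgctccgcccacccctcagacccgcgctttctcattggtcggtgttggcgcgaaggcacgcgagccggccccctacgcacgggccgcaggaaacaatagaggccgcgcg
In the *Gatad2a* window the Bach core begins 222 bases and the Ikaros core 149 bases before the start site, both on the gene's strand. The *Chd4* window shown, at its annotated start, has a GC content of 57%, that of *Hdac2* 69.7% and that of *Rbbp4* 68.7%, against a median of 52.7% over all promoters.

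The other NuRD subunits were described from a list of 8 genes, of which 7 passed the filter. Of these 7, 0 were higher and 1 lower without overlap, 1 was higher and 1 lower at an unadjusted p under 0.05, and their median log2 fold change was -0.20 against 0.08 over all genes tested. With the trend in length and GC taken out the median was -0.40 against -0.04, and 0 were higher and 2 lower at an unadjusted p under 0.05, against 5.1% and 9.85% of all genes. The shares of all genes tested to read these and the next lists against were 14.6% higher and 12.2% lower without overlap, and 10.1% higher and 10.2% lower at an unadjusted p under 0.05. *Mta3*, an alternative scaffold, was the gene without overlap, at 556, 475 and 489 normalized read counts in WT and 288, 428 and 420 in the libraries labelled Bach2-deficient (log2 fold change -0.44, adjusted p = 0.334 in limma, -0.25 without replicate 1 labelled Bach2-deficient and -0.70 with the trend in length and GC taken out). *Rbbp7*, the close paralogue of *Rbbp4*, was at 6566, 4100 and 4859 in WT and at 2270, 1861 and 4130 in the other group. As with *Rbbp4*, WT replicate 1 was the highest and replicate 3 the highest of the labelled group, and here the groups overlapped (log2 fold change -0.97, adjusted p = 0.155 in limma). *Chd3*, the paralogue of *Chd4*, was at 241, 577 and 502 in WT and at 1066, 1014 and 566 in the other group, with overlap (log2 fold change 1.04, adjusted p = 0.173 in limma) and a log2 fold change of 0.20 once the trend in length and GC was taken out, or 0.66 without WT replicate 1. How reads that fit both genes of such a pair were assigned is not given in the sources used here. The remaining genes gave log2 fold changes of 0.24 (*Mta1*), -0.04 (*Mbd2*), -0.20 (*Mbd3*) and -0.45 (*Cdk2ap1*), all with overlap. That of *Mbd3* was -0.01 without replicate 2 labelled Bach2-deficient, -0.39 without replicate 3 and -0.40 with the trend taken out. *Chd5*, a remodeler mostly of the nervous system, was at 6.14 normalized read counts or less.

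Of the 16 subunits of SWI/SNF, the remodeler that often opposes NuRD, 7 were higher and 3 lower without overlap, and 7 were higher and 3 lower at an unadjusted p under 0.05, against 14.6% and 12.2% and against 10.1% and 10.2% of all genes tested. Their median log2 fold change of 0.49 was -0.01 after the trends in length and GC were taken out, and 1 was then higher and 3 lower at an unadjusted p under 0.05, against 5.1% and 9.85% of all genes. *Arid2* (log2 fold change 1.23, adjusted p = 0.159 in limma) and *Smarcd1* (1.19, adjusted p = 0.151 in limma) had the largest positive values without overlap, and *Actl6a* (-1.13, adjusted p = 0.157 in limma) the largest negative. Taking out the trend in length and GC brought *Arid2* to 0.75 and *Smarcd1* to 0.78, and *Arid2* was also at 0.75 without WT replicate 1. Of 12 other corepressor genes, 11 were tested, of which 3 were higher and 1 lower without overlap, and 2 were higher and 0 lower at an unadjusted p under 0.05, where the shares over all genes tested were 14.6% and 12.2%, and 10.1% and 10.2%. Their median log2 fold change was 0.13, or -0.34 with the trend taken out. In that fit 1 was higher and 1 lower at an unadjusted p under 0.05, against 5.1% and 9.85% of all genes. *Kdm1a*, a histone demethylase that joins NuRD and CoREST, gave a log2 fold change of 0.66 (adjusted p = 0.163 in limma), *Tbl1xr1* 0.57 (adjusted p = 0.163 in limma) and *Hdac3* -0.52 (adjusted p = 0.289 in limma). The value of *Tbl1xr1* was 0.17 with the trend in length and GC taken out, and that of *Hdac3* was -0.26 without WT replicate 1. *Ctbp2* did not pass the filter.

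Genes that Ikaros or Aiolos is known to act on in T cells were read in the same libraries. Of the 8, 2 were higher and 2 lower without overlap, 2 were higher and 2 lower at an unadjusted p under 0.05, and the median log2 fold change was 0.25. Over all genes tested the shares were 14.6% higher and 12.2% lower without overlap, and 10.1% and 10.2% at that p. With the trend in length and GC taken out the median was 0.03. In that fit *Il2* was higher and *Ifng* lower at an unadjusted p under 0.05, against 5.1% and 9.85% of all genes. *Ifng*, the cytokine of type 1 help, was at 180, 164 and 362 normalized read counts in WT and at 32.5, 91.1 and 51.1 in the libraries labelled Bach2-deficient. Its groups did not overlap, with a log2 fold change of -2.02 (adjusted p = 0.141 in limma). For *Ifng* DESeq2 on 5 libraries gave -2.18 with an adjusted p of 0.00345, and edgeR on the same libraries -2.14 with 0.148. *Il10*, a cytokine that dampens immune responses, was at 262, 61.7 and 155 in WT and at 59.1, 54.3 and 43.0 in the other group, also without overlap (log2 fold change -1.38, adjusted p = 0.204 in limma, and -0.91 without WT replicate 1). *Bcl6*, the repressor that directs Tfh fate, was at 436, 342 and 501 in WT and at 792, 818 and 537 in the libraries labelled Bach2-deficient. *Dtx1*, a regulator of Notch signaling, was at 304, 316 and 431 in WT and at 627, 576 and 547 in the latter. Both were higher without overlap, with log2 fold changes of 0.74 (adjusted p = 0.173 in limma) and 0.75 (adjusted p = 0.158 in limma), and once the trend in length and GC was taken out they were 0.47 and 0.09. For *Il2*, *Tbx21*, *Hes1* and *Prdm1* the groups overlapped, with log2 fold changes of 1.27, 0.06, -0.23 and 0.44, and that of *Prdm1* was 0.12 with the trend taken out.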

How the data were processed

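Tfh cell RNA was sequenced in 3 libraries a group. The authors amplified cDNA with the SMARTer Ultra Low kit, counted reads per gene with HTSeq and scaled counts by a size factor for each library. The deposited values are thus a signal, a normalized read count per gene. The study's methods name Tophat2 as the aligner, whereas the submitters' processing notes name STAR 2.5.2b, with DESeq2 1.20.0 in R 3.5.1 and GRCm38, and which made this table is not known here. Strand use in counting is not given in the sources used here.

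Groups were compared on log2(value + 1) with limma 3.58.1 (trended variance, R 4.3.3) over 11296 genes with at least 10 in at least 3 libraries, with Benjamini-Hochberg adjustment. A fold change on this scale understates that of low genes. The thresholds are those of the study. Whole reads were recovered as multiples of the smallest value above 0 in a library, which gave whole numbers (within 0.1) for 100% of values. WT replicate 1, whose step of 1.01 is too near a power of 10 for this to be checked, was left out of the count tests, so edgeR 4.0.16 and DESeq2 1.42.0 used 5 libraries. Recovered depth was 5045131 to 10987752 reads, and PCR copies were not told apart. Paralogue ratios were compared with 2-sided exact permutation tests.

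Transcript length and GC content are of the longest GENCODE M21 transcript. Symbols matched for 14329 genes and older symbols for 364 more. In an alternative, a smooth trend in both was subtracted from each library, and removing the length trend alone was chosen after seeing the data. Other alternatives were pseudocounts, filters, scalings, variance models, library weights, each library left out in turn and a replicate block. The limma, edgeR and DESeq2 tests were tested on simulated data. The genes named were the 10 genes, *Bach2*, each gene of the lists of other Ikaros genes, other NuRD subunits and Ikaros or Aiolos targets, up to 3 genes without overlap with the largest change from the SWI/SNF and corepressor lists, and the most abundant gene of each marker list. *Foxp3*, *Ctla4* and *Pstk* were named after their values were seen. The 10 genes and the lists were chosen with earlier results of these data known.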

Additional observations from a re-analysis of the deposited data

How the results depend on the processing

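Over 19 alternatives, 9 of the 10 genes kept the sign of their log2 fold change in each, the exception being *Mta2* at -0.03 with the length and GC trend removed. The filters, the untrended variance and the replicate block leave each log2 fold change as it was, so they could not change a sign. Leaving out each library gave 6 to 9 genes without overlap and 4 to 8 at an unadjusted p under 0.05 (6 of each with all libraries). The 9 were without replicate 3 labelled Bach2-deficient, where 27.2% of all genes were higher and 23% lower without overlap. With all libraries these shares were 14.6% and 12.2%, and for the other left-out libraries they were not counted. Genes of all 11296 at that p ran from 1074 to 3070 (2301 with all libraries). The log2 fold changes over left-out libraries were 0.68 to 1.11 for *Ikzf1*, 0.85 to 0.94 for *Chd4*, -0.83 to -0.59 for *Hdac2* and -2.41 to -1.47 for *Rbbp4*. No gene passed the thresholds at higher or lower values in limma, save with library weights (561 higher and 567 lower), where *Ikzf5* (1.55) and *Rbbp4* (-2.04) passed, and in DESeq2 on 5 libraries (33 higher and 57 lower), where 0 of the 10 did. Library weights leaned on replicate 2 labelled Bach2-deficient (weight 5.54, against 0.206 for WT replicate 1), and the cause of these differences was not tested. Replicate numbers did not pair the libraries (correlations of deviations -0.07, 0.12 and -0.04). With a replicate block 0 genes passed the thresholds, and 6 of the 10 and 2051 of the 11296 had an unadjusted p under 0.05. Removing the length and GC trend moved the median of all genes from 0.08 to -0.04.

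Genes beyond the 10 also changed sign. *Ikzf2* (-0.12) gave 0.07 with quantile normalization, -0.49 with the trend in length and GC removed, -0.66 with that in length removed, -0.40 with library weights and from -0.36 to 0.05 over left-out libraries. *Ikzf4* (0.52) gave -0.42 with DESeq2, -0.39 with edgeR, -0.01 with the trend in length and GC removed and -0.51 to 1.08 over left-out libraries, -0.51 being without WT replicate 1. *Mta1* (0.24) gave -0.08 with the trend in length and GC removed and -0.13 to 0.63 over left-out libraries. *Mbd2* (-0.04) gave 0.05 with the length trend removed, 0.04 with library weights and 0.07 with quantile normalization. *Tbx21* (0.06) gave -0.21 with DESeq2, -0.19 with edgeR, -0.25 with the length and GC trend removed, -0.02 with median rescaling, -0.15 with quantile normalization and -0.35 to 0.57 over left-out libraries. *Hes1* (-0.23) gave -1.12 to 0.31 over left-out libraries, and the log2 ratio of *Gatad2b* to *Gatad2a* (0.05) gave -0.10 to 0.30. The cause was not tested. Depth limits *Ikzf5*, with 40 to 211 recovered reads a library, more than the other 9 genes.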
